A study of Mus musculus with 9 samples.

Results

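The genes described here encode the olfactory signal transduction machinery, the chain of proteins that turns an odorant bound to its receptor into an electrical signal in the cilia of olfactory sensory neurons. The set has 10 genes, Rtp1, Rtp2, Gnal, Gng13, Adcy3, Cnga2, Cnga4, Cngb1, Ano2 and Omp, out of 19938 genes named on the array. Members were found by symbol among the probe sets annotated to a single gene, and each gene is represented by its brightest probe set, taken by the mean of all 9 arrays. They matched 13 probe sets of the 23410 tested, because Cngb1 has 4. Expression in nasal mucosa of BALB/c mice, a model of allergic rhinitis, was measured on Affymetrix Mouse Gene 1.0 ST arrays, with 3 arrays in each of 3 groups. Mice of the control group received saline for both sensitisation and challenge. Mice of the OVA group received ovalbumin (OVA) for both and were killed 2 hours after their final challenge, and mice of the 4-week group had the same treatment followed by 4 weeks without allergen. All arrays are labelled male and 6 to 8 weeks of age, including those taken after the longer wait. No saline group was taken at 4 weeks, so elapsed time and treatment cannot be told apart when the 4-week group is set against control. The study's title concerns allergen avoidance, which that interval represents.

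In an olfactory neuron the odorant receptor needs the chaperones Rtp1 and Rtp2 to reach the surface. The activated receptor releases the G protein alpha subunit Golf (Gnal), whose partner gamma subunit is Gng13, and Golf stimulates the adenylyl cyclase Adcy3. Cyclic AMP opens a cation channel made of Cnga2, Cnga4 and Cngb1, the calcium that enters opens the chloride channel Ano2, and Omp, a cytosolic protein abundant in mature olfactory neurons, shapes the time course of the response.

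Values are log2 expression, so a difference of 1 is a doubling. The array medians lay between 6.38 and 6.45, and arrays correlated with others of their own group at 0.986 to 0.992 and with arrays of other groups at 0.973 to 0.988. The 3 arrays labelled control carried the female pattern, with Xist at 10.62 to 11.11 against 4.22 to 4.42 on the other 6 arrays, and with low values of the Y-linked genes Eif2s3y, Uty and Kdm5d. This goes against their label. The mucosa included olfactory epithelium on every array, with Omp at 11.47 to 12.43. In every comparison with the arrays labelled control, this pattern and the treatment cannot be told apart, and only the 4-week and OVA groups share the same pattern. Cnga2 lies on chromosome X. The labels do not say that the 3 arrays of a group came from separate animals, so p-values here measure only how these samples vary, and that variation may be technical.

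Of the 10 members, 7 have a promoter window in the RefSeq table of assembly GRCm38.p6, which holds 250 bases before to 50 bases after each annotated start. Rtp1, Gnal and Omp have none, so the members that passed the main test below, Rtp1 and Gnal, were not searched. The windows were searched for CCCNNGGG, the core of the site bound by the Ebf (Olf) transcription factors of olfactory neurons, which reads the same on both strands. The core was found in 6 of the 7 genes, in 6 of their 11 windows (54.5%), against 13.7% of all 32851 windows in the table. It is shown as a sequence feature that most of these windows share, and of the 4 Ebf genes measured only Ebf4 passed in any comparison. Each stretch is written 5′ to 3′ on the strand of the gene, with the core in capitals.
Cnga2: aagggagagtCCCTTGGGgagcttggga
Cnga4: gcagctggagCCCCAGGGcagcttcttc
Cngb1: cactgctggaCCCGTGGGggttgctgct
Ano2: aagggaacacCCCGAGGGatggaggcag
Rtp2: cctccgtcagCCCATGGGttggatctca
Gng13: gcatgtcccaCCCCAGGGgagacctgcc

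The Cnga2 stretch is at chrX:71991773-71991800 on the plus strand, with its core 66 bases before the start. The Cnga4 stretch is at chr7:105404582-105404609 on the plus strand and lies 24 bases after the start. The Cngb1 stretch is at chr8:95306697-95306724 on the minus strand, 129 bases before the start. The Ano2 stretch (chr6:125711111-125711138, plus strand) comes from 1 of 3 annotated starts, 67 bases before it. The Rtp2 stretch (chr16:23930979-23931006, minus strand) lies 202 bases before the start, and the Gng13 stretch (chr17:25717067-25717094, plus strand) 95 bases before 1 of 2 starts. Neither of the 2 Adcy3 windows holds these letters. A longer form, with a T before and an A after the core, was in 0 of the 11 windows and in 0.904% of all windows. The homeodomain core TAATTA was also in 0 of the 11, against 5.29% of all windows and 18.6% of the windows of olfactory receptor genes. Counted by gene, CCCNNGGG was in 85.7% of the members with a window, 36.4% of the mature olfactory neuron markers, 44.4% of the transcription factors listed for these neurons, 15.4% of all genes and 3.07% of olfactory receptor genes. The base composition of the windows was not taken into account, and a match of letters is a description of the window, not evidence of binding.

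Most members had slightly lower means in the ovalbumin groups than in the control group, and few passed the test. Rtp1 and Gnal passed, both lower 4 weeks after the last challenge than on the control arrays, and neither call held when those 2 groups were fitted alone. In the OVA group 0 of 10 members passed an adjusted p of 0.05 (limma, Benjamini-Hochberg over all 23410 probe sets) against the control group, where 1.3% of all probe sets passed, 0.521% as lower and 0.782% as higher. At an unadjusted p under 0.05 there were 3 members, against 16.4% of all probe sets. Between the 4-week and OVA groups 0 of 10 passed, against 6.33% of all probe sets (2.51% lower and 3.81% higher), with 2 members at an unadjusted p under 0.05 (23.9% of all probe sets). In the 4-week group against the control group 2 of 10 passed, Rtp1 and Gnal, both lower, where 14.4% of all probe sets passed and 6.45% passed as lower, so the members' share is near the background. At an unadjusted p under 0.05 there were 5 members, against 32.9% of all probe sets. The median change of the 10 members was −0.15 in the first comparison, −0.21 in the second and −0.37 in the third, and the median over all genes was −0.02, −0.03 and −0.05. The members below 0 were 9, 8 and 8 of 10, against 54.7%, 57.3% and 59.6% of all genes. The comparisons share groups, so these counts are not independent of each other. In whole mucosa, fewer olfactory neurons and less RNA per neuron cannot be told apart.

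**Figure D1:**
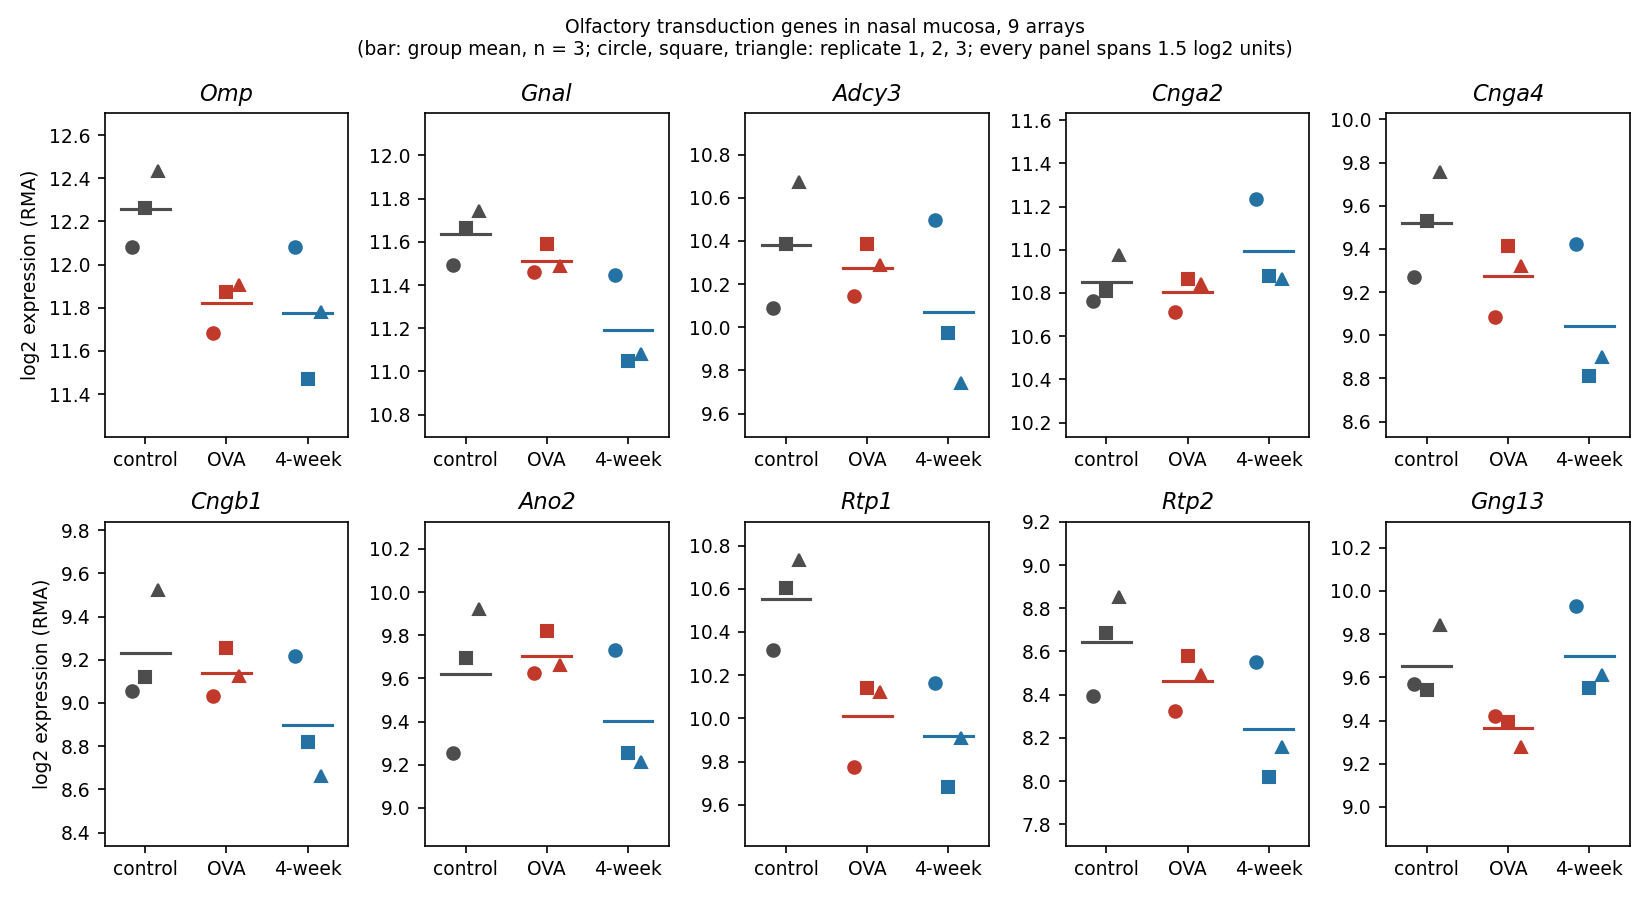
Log2 expression of the 10 members on each array (vertical axis, each panel spanning 1.5 log2 units) in the control, OVA and 4-week groups. Marker shapes give replicates 1, 2 and 3 and bars the group means; for Rtp1 the control arrays lie above all OVA and 4-week arrays, and for Cnga2 and Gng13 4-week replicate 1 is the highest array.

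Among the receptor chaperones, Rtp1 had the widest range of the members over the 9 arrays, 1.05. Its control arrays read 10.32, 10.60 and 10.73, its OVA arrays 9.78, 10.14 and 10.12, and its 4-week arrays 10.16, 9.68 and 9.91. All 6 arrays of the ovalbumin groups were below all 3 control arrays, and the OVA and 4-week arrays overlapped. Rtp1 fell by 0.63 (SE 0.16, adjusted p = 0.0304) from the control to the 4-week group, a 1.55-fold lower level. In the OVA group its change was already −0.54 (SE 0.16, adjusted p = 0.141), and from there to 4 weeks it was −0.10 (adjusted p = 0.753). The call after 4 weeks was lost when control replicate 2 or 3, or 4-week replicate 2 or 3, was left out, with adjusted p up to 0.0958, and when the 2 groups were fitted alone (0.0538).

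Rtp2, the close relative of Rtp1 with the same role, showed a smaller difference. It read 8.39, 8.69 and 8.85 on the control arrays, 8.32, 8.58 and 8.49 on the OVA arrays, and 8.55, 8.02 and 8.16 on the 4-week arrays. Every pair of groups overlapped, and 4-week replicate 1 lay inside the range of both other groups. The changes were −0.18 (adjusted p = 0.611) in the OVA group and −0.40 (adjusted p = 0.114) after 4 weeks, both against control.

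Gnal, the alpha subunit of Golf, was lowest on the 4-week arrays. Its control arrays read 11.50, 11.67 and 11.75, its OVA arrays 11.46, 11.59 and 11.49, and its 4-week arrays 11.45, 11.05 and 11.08. The control and OVA arrays overlapped, and all 3 4-week arrays were below all 6 others, although 4-week replicate 1 was only just below the lowest OVA array. Gnal fell by 0.44 (SE 0.11, adjusted p = 0.0349) from the control to the 4-week group, a 1.36-fold lower level. The change was −0.12 (adjusted p = 0.634) in the OVA group against control and −0.32 (SE 0.11, adjusted p = 0.132) from OVA to 4 weeks. The call was lost in 7 of 9 fits that left out 1 array each, all but those without control replicate 1 or 4-week replicate 1, with adjusted p up to 0.112. It was lost too with the 2 groups fitted alone (0.0782) and with the rows that have no gene symbol added (0.0507).

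Gng13, the gamma subunit that assembles with Golf, had another course. It read 9.57, 9.54 and 9.84 on the control arrays, 9.42, 9.39 and 9.28 on the OVA arrays, and 9.93, 9.55 and 9.61 on the 4-week arrays. The OVA arrays were the 3 lowest of the 9 and overlapped with neither other group, while the control and 4-week arrays overlapped. The change was −0.29 (SE 0.12, adjusted p = 0.281) from control to OVA and 0.33 (SE 0.12, adjusted p = 0.131) from OVA to 4 weeks, and neither passed. From control to 4 weeks it was 0.05, with a 95% interval of −0.22 to 0.32, and −0.10 when the table was quantile normalized once more. Gng13 is also made by taste-like chemosensory cells of the nose. The summed level of 8 markers of these cells was 8.39 to 8.52 on the control arrays, 8.34 to 8.42 on the OVA arrays and 8.37 to 8.48 on the 4-week arrays. Of these 8, only Gnat3, a G protein alpha subunit of those cells, passed. It rose by 0.55 from OVA to 4 weeks (adjusted p = 0.00436) and by 0.62 from control to 4 weeks (adjusted p = 0.00205). Gnat3 read only 3.55 to 4.23 on the arrays, below the array medians of 6.38 to 6.45. From control to 4 weeks, 3 of the 8 markers had changes above 0 and 5 below. The part of Gnat3 in the values of Gng13 was not tested.

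Adcy3, the cyclase that makes the cyclic AMP, overlapped between all groups. It read 10.09, 10.38 and 10.67 on the control arrays, 10.15, 10.39 and 10.29 on the OVA arrays, and 10.50, 9.97 and 9.74 on the 4-week arrays. The spread inside the control and 4-week groups (SD 0.29 and 0.39) was about as large as the difference between them, −0.31 (SE 0.20, adjusted p = 0.305).

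None of the 3 subunits of the cyclic nucleotide gated channel passed in any comparison. Cnga2, the subunit that can form a channel by itself, had the smallest range of the members, 0.52. It read 10.76, 10.81 and 10.98 on the control arrays, 10.71, 10.87 and 10.84 on the OVA arrays, and 11.24, 10.88 and 10.87 on the 4-week arrays, and all groups overlapped. Its change was 0.19 (adjusted p = 0.337) from OVA to 4 weeks and 0.14 from control to 4 weeks. The unadjusted 95% interval of the latter was −0.10 to 0.39, which does not include the −0.44 of Gnal. Cnga2 lies on chromosome X, and in this interval the female pattern of the control arrays and the treatment cannot be told apart. The change was 0.026 after quantile normalization once more and 0.024 without 4-week replicate 1.

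Cnga4, a modulatory subunit, read 9.27, 9.53 and 9.76 on the control arrays, 9.08, 9.42 and 9.32 on the OVA arrays, and 9.42, 8.81 and 8.90 on the 4-week arrays. The 4-week replicates 2 and 3 were the lowest arrays and replicate 1 lay inside the control range. The change after 4 weeks was −0.48 against control (SE 0.18, adjusted p = 0.104) and −0.23 against OVA (adjusted p = 0.471). Cngb1, the remaining modulatory subunit, was 9.23 ± 0.25 (SD, n = 3) in the control group, 9.14 ± 0.11 in the OVA group and 8.90 ± 0.29 in the 4-week group, with all groups overlapping. Its change after 4 weeks was −0.33 against control (SE 0.16, adjusted p = 0.188). The 4 probe sets of Cngb1 disagreed. A second one, with a mean of 5.60 over the arrays, fell by 0.54 from OVA to 4 weeks (adjusted p = 0.0381) and by 0.68 from control to 4 weeks (adjusted p = 0.0106). The other two changed by −0.01 and −0.13 from control to 4 weeks (adjusted p = 0.963 and 0.418). The mean of the 4 probe sets was at −0.29 and passed in that comparison (adjusted p = 0.0170).

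Ano2, the calcium-activated chloride channel that amplifies the current, was the only member whose OVA mean was above the control mean. It read 9.25, 9.70 and 9.92 on the control arrays, 9.63, 9.82 and 9.66 on the OVA arrays, and 9.73, 9.25 and 9.22 on the 4-week arrays. The OVA arrays lay close together inside the control range, and its changes of 0.08, −0.30 and −0.22 in the 3 comparisons did not pass (adjusted p = 0.866, 0.352 and 0.422).

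Omp read 12.08, 12.26 and 12.43 on the control arrays, 11.69, 11.87 and 11.91 on the OVA arrays, and 12.08, 11.47 and 11.78 on the 4-week arrays. All OVA arrays were below all control arrays, and 4-week replicate 1 reached the lowest control array. The change was −0.44 (SE 0.15, adjusted p = 0.208) in the OVA group and −0.48 (SE 0.15, adjusted p = 0.0669) after 4 weeks, both against control. From OVA to 4 weeks it was −0.04, with a 95% interval of −0.39 to 0.30. Quantile normalization of the table once more gave −0.61 and a pass (adjusted p = 0.0377) after 4 weeks against control, and testing only the upper 60% of probe sets by mean also gave a pass (adjusted p = 0.0487).

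**Figure D2:**
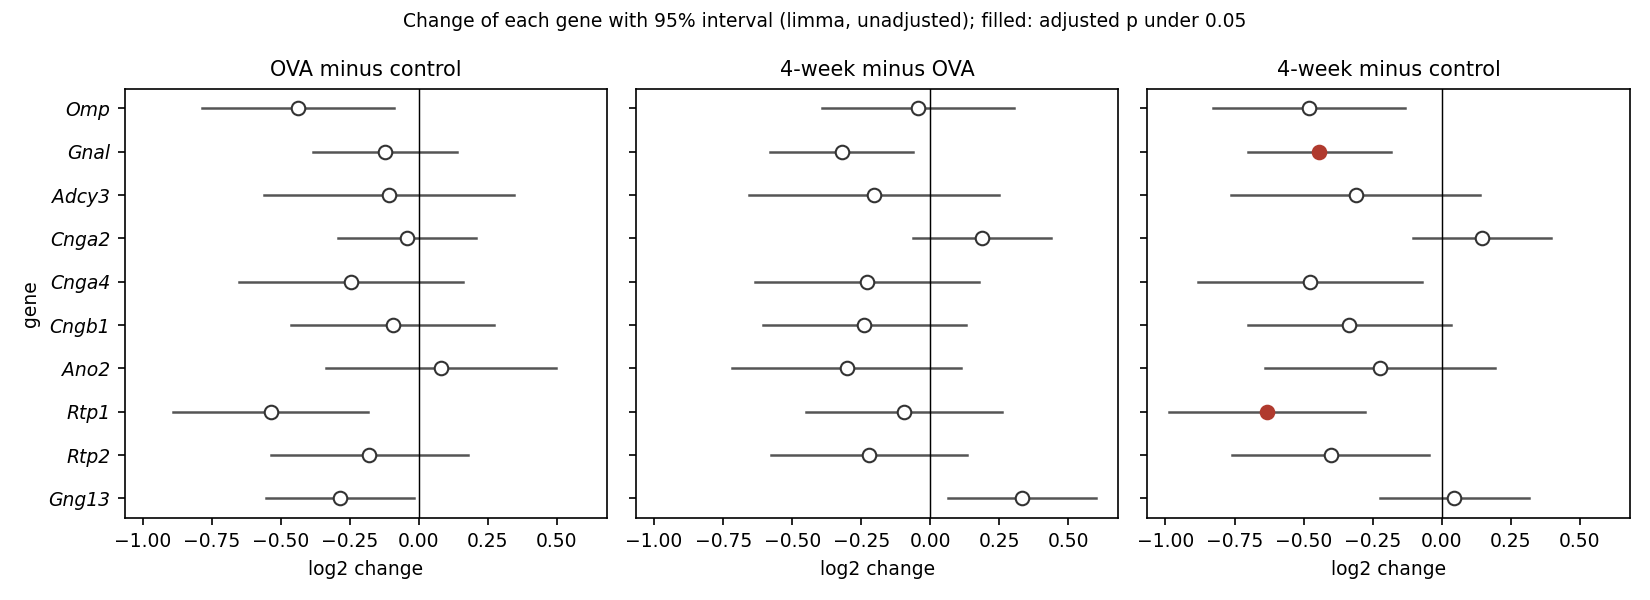
Log2 change of each member (horizontal axis) for OVA against control, 4-week against OVA and 4-week against control, with unadjusted 95% intervals from limma. Filled points passed an adjusted p of 0.05, which only Rtp1 and Gnal did, both in the last panel; Cnga2 and Gng13 lie above 0 in that panel (Gng13 at −0.10 after quantile normalization once more) and the other 8 below.

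By the order of group means the members fell into 3 patterns. In 7 of 10 the order was control, OVA, 4-week from high to low, in Cnga2 and Gng13 it was 4-week, control, OVA, and in Ano2 it was OVA, control, 4-week. The order of Gng13 turned to control, 4-week, OVA when the table was quantile normalized once more. Cnga2 kept its order, but its 4-week minus control change was then only 0.026, and it was 0.024 without 4-week replicate 1. Neighbouring groups in these orders were free of overlap between control and OVA for Rtp1, Omp and Gng13 and between OVA and 4-week for Gnal, and for the other 6 members every neighbouring pair overlapped. Of all probe sets, 11.1% had OVA arrays all below control arrays, against 3 of 10 members (Rtp1, Omp and Gng13). For 4-week below OVA the figures were 13.7% and 1 of 10 (Gnal), and for 4-week below control 18.4% and 2 of 10 (Rtp1 and Gnal). For 4-week above OVA they were 14.5% and 1 of 10 (Gng13). For OVA above control and 4-week above control they were 10.4% and 16.6%, with 0 of 10 members in each.

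The members also moved together from array to array inside a group. Control replicate 3 was the highest array for 8 of 10 members and 4-week replicate 1 for Cnga2 and Gng13. All 10 members were above their group mean on control replicate 3, on OVA replicate 2 and on 4-week replicate 1, and all 10 were below it on control replicate 1 and 4-week replicate 2. The mean of the 10 members was 10.23 on 4-week replicate 1 against 9.75 and 9.79 on replicates 2 and 3, and 10.03, 10.23 and 10.45 on the control arrays. Without 4-week replicate 1, 5 members passed in 4-week minus control, where 10.9% of all probe sets passed: Rtp1 (−0.76), Cnga4 (−0.66), Omp (−0.63), Gnal (−0.57) and Rtp2 (−0.56). Without control replicate 2 or 3, 0 of 10 members passed, where 7.7% and 8.49% of all probe sets did. Without 4-week replicate 2 or 3, 0 of 10 passed again, where 6.66% and 11.5% of all probe sets did.

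Over the 9 arrays, Pearson's r of a member with the mean of the other 9 was highest for Cnga4 (0.984) and Rtp2 (0.972) and lowest for Cnga2 (0.361) and Gng13 (0.367). With each group's mean removed, r was 0.803 for Gng13, 0.963 for Cnga2 and 0.879 to 0.99 for the other 8. These correlations describe 9 arrays that share one normalization, and no test was made of them. The 8 genes most like the mean of the 10 members, over the same 9 arrays and leaving out chemosensory receptor genes and predicted transcripts, were Clstn2 (r = 0.989), Klhl5 (0.982), Syt1 (0.975), Mapk10 (0.973), Mslnl (0.968), Adam23 (0.968), Rtn4rl1 (0.959) and Drd2 (0.959). None of the 8 passed in any of the 3 comparisons. Their changes from control to 4 weeks were −0.28 to −0.55, with adjusted p of 0.0609 to 0.267.

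**Figure D3:**
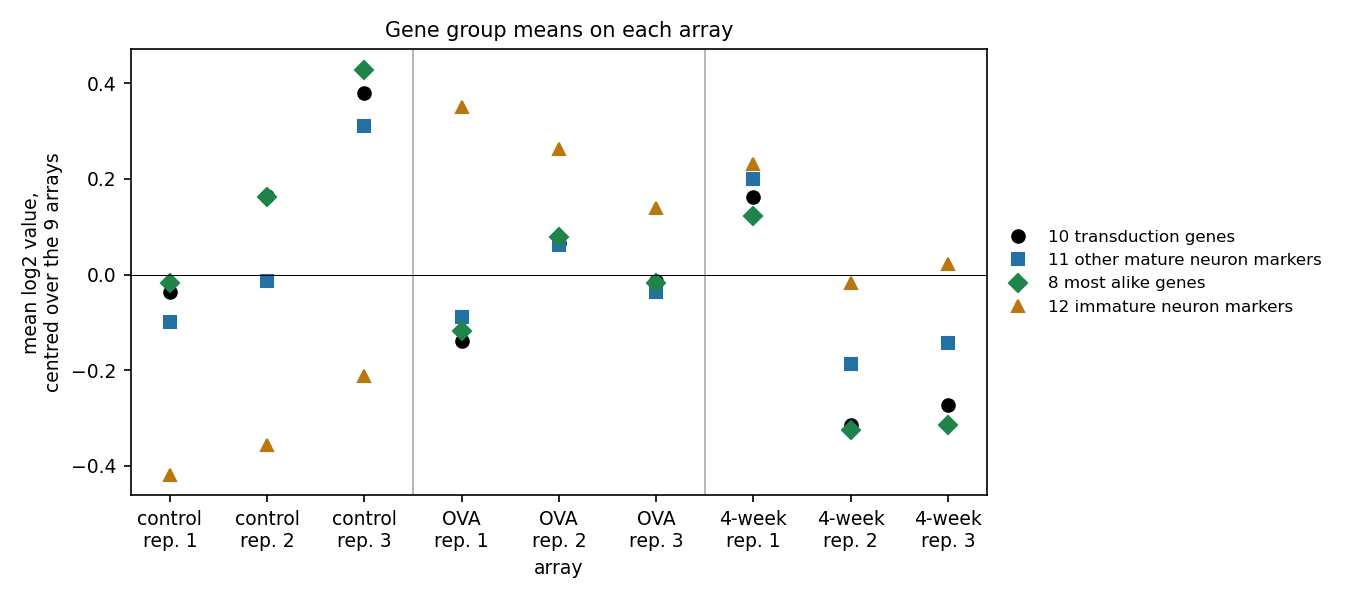
Mean log2 expression on each of the 9 arrays, centred over the arrays, for the 10 members, 11 other mature olfactory neuron markers, the 8 genes most like the members and 12 immature olfactory neuron markers. The members and the mature markers go up and down together inside each group, and the immature markers are higher on all OVA and 4-week arrays than on the control arrays.

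Since the members share this rise and fall with other genes of mature olfactory neurons, each was also set against 11 markers of these neurons that are not members. The summed level of the 11 was 14.38 to 14.60 on the control arrays, 14.26 to 14.40 on the OVA arrays and 14.38 to 14.61 on the 4-week arrays, and all groups overlapped. Of the 11, S100a5, a calcium-binding protein, rose by 0.52 from OVA to 4 weeks (adjusted p = 0.0196) and by 0.35 from control to 4 weeks (adjusted p = 0.0434), calls lost in 4 and in 9 of 9 fits without 1 array. Faim2, a membrane protein that inhibits cell death, fell by 0.53 from control to 4 weeks (adjusted p = 0.0349), a call lost in 5 of 9. The 11 markers differed among themselves, with changes from −0.77 to 0.39 in OVA minus control. Their changes ran from −0.46 to 0.52 in 4-week minus OVA and from −0.66 to 0.35 in 4-week minus control. The quantity below is a member's log2 value minus the mean log2 value of the 11 on the same array, of which only the differences between arrays have a meaning.

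Relative to these markers the members split, but the markers also differed among themselves. Before any subtraction, 3 of the 11 markers were higher and 1 lower without overlap in 4-week minus control. Of all probe sets, 16.6% and 18.4% were so. A split of this kind is therefore not particular to the members. For Gnal the quantity was 1.33, 1.41 and 1.17 on the control arrays, 1.28, 1.26 and 1.26 on the OVA arrays, and 0.977, 0.968 and 0.955 on the 4-week arrays, the 4-week arrays being close together and lower than all others. For Cnga2 it was 0.594, 0.555 and 0.396, then 0.534, 0.536 and 0.608, then 0.767, 0.798 and 0.742, the 4-week arrays being higher than all others. For Gng13 it was −0.600, −0.716 and −0.736, then −0.758, −0.936 and −0.956, then −0.538, −0.531 and −0.515, lowest on the OVA arrays and highest on the 4-week arrays, with no overlap between any of the groups.

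For Omp and Rtp1 the OVA and 4-week arrays were both below all control arrays, and they overlapped each other. Cnga4, Cngb1 and Rtp2 were lower on the 4-week arrays than on the control arrays, Ano2 was lower on the 4-week than on the OVA arrays, and Adcy3 overlapped in all comparisons. In 4-week minus control 6 members were lower and 2 higher without overlap, where 4.18% and 8.24% of all genes were so against the same 11 markers. In 4-week minus OVA 4 were lower and 2 higher, against 7.07% and 5.51%, and in OVA minus control 4 were lower and 0 higher, against 2.67% and 9.28%. The markers rise and fall with the members from array to array (r = 0.913 with the member mean over the 9 arrays). Subtracting them can narrow the members' spread and adds that variation to genes that do not share it. Without the subtraction, 2 of 10 members and 18.4% of all probe sets were lower without overlap in 4-week minus control. The shares of all genes are therefore not a like background for the members. After quantile normalization of the table once more, the 4-week arrays were still higher than both other groups for Cnga2 (by 0.18 and 0.27) and Gng13 (by 0.38 and 0.14) and lower for Gnal (−0.32 against each).

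**Figure D4:**
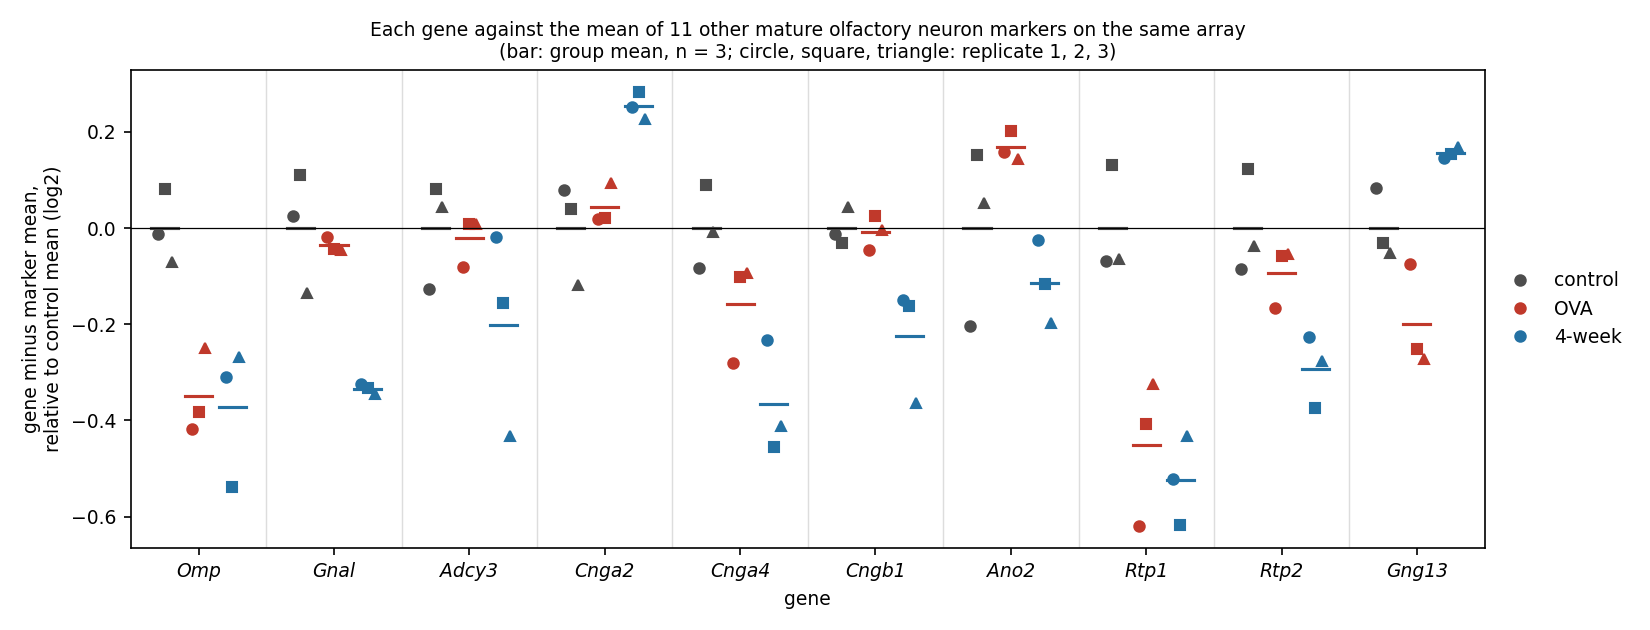
Log2 value of each member minus the mean of 11 mature olfactory neuron markers on the same array, relative to the mean of the control arrays. On the 4-week arrays Cnga2 and Gng13 are above, and Gnal below, all arrays of the other groups, and Omp and Rtp1 are below the control arrays in both ovalbumin groups.

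A fit over all probe sets with the mean of the 11 markers as a covariate, chosen after seeing the data, gave 2 members past the threshold in 4-week minus OVA: Gnal fell by 0.30 (adjusted p = 0.0418) and Gng13 rose by 0.35 (adjusted p = 0.0315). That fit called 6.96% of all probe sets, 3.15% as lower and 3.81% as higher. In 4-week minus control 4 members fell, Rtp1 by 0.52 (adjusted p = 0.0204), Omp by 0.37 (0.0459), Gnal by 0.36 (0.0191) and Cnga4 by 0.33 (0.0415), where 13.1% of all probe sets were called and 6.04% as lower. Cnga2 was at 0.23 (adjusted p = 0.0636). In OVA minus control 0 of 10 passed, where 1.07% of all probe sets were called, and the lowest adjusted p was that of Rtp1 (−0.45, adjusted p = 0.0965). The covariate includes S100a5 and Faim2, which themselves passed. It rises and falls with the members and can narrow their spread, so the shares of all probe sets are not a like background here either. For Cnga4 in 4-week minus control the SE was 0.18 without the covariate and 0.084 with it. The covariate fit was not repeated without 1 array.

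Of the other genes of the pathway, 27 of 31 listed partners were measured, among them G protein subunits, regulators, phosphodiesterases and ion transporters. None passed in OVA minus control, and 1 fell in 4-week minus OVA, where 2.51% of all probe sets fell. In 4-week minus control 3 rose and 2 fell, where 7.92% of all probe sets rose and 6.45% fell. The largest fall was that of Slc24a4, the sodium, potassium and calcium exchanger that clears calcium from the cilia. It read 9.84 to 10.12 on the control arrays, 9.63, 9.68 and 9.66 on the OVA arrays, and 9.38, 8.88 and 8.93 on the 4-week arrays. The 3 groups did not overlap. Slc24a4 fell by 0.92 (SE 0.13, adjusted p = 0.00453) from control to 4 weeks, a call kept in all 9 fits without 1 array, and by 0.59 (SE 0.13, adjusted p = 0.0344) from OVA to 4 weeks, a call lost in 6 of 9.

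Rgs2, a regulator of G protein signalling that also inhibits Adcy3, went the other way. It read 6.76, 6.80 and 6.62 on the control arrays, 7.41, 7.15 and 7.39 on the OVA arrays, and 7.44, 8.20 and 7.74 on the 4-week arrays, again with no overlap between groups. Rgs2 rose by 1.07 (SE 0.17, adjusted p = 0.00657) from control to 4 weeks, kept in all 9 such fits. Grk3, a receptor kinase that ends odorant signalling (0.47, adjusted p = 0.0478), and Atp2b1, a plasma membrane calcium pump (0.24, adjusted p = 0.0466), rose and Adcyap1, a neuropeptide that stimulates cyclase (−0.31, adjusted p = 0.0454), fell in the same comparison, each lost in at least 7 of the 9 fits.

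Among 11 measured transcription factors of olfactory neurons, 0 passed in OVA minus control, where 1.3% of all probe sets passed. In 4-week minus OVA 1 fell, and in 4-week minus control 3 fell, where 2.51% and 6.45% of all probe sets fell. Atf5, needed for these neurons to mature, fell by 0.50 from OVA to 4 weeks (adjusted p = 0.0477, lost in 7 of 9 fits) and by 0.61 from control to 4 weeks (SE 0.12, adjusted p = 0.0149, lost in 1 of 9). Of the 4 Ebf genes, whose core motif is shown in the sequences above, 3 did not pass in 4-week minus control: Ebf1 was at −0.05 (adjusted p = 0.832), Ebf2 at −0.09 (0.694) and Ebf3 at −0.31 (0.251). Ebf4 read 9.44, 9.67 and 10.08 on the control arrays, 9.38, 9.50 and 9.41 on the OVA arrays, and 9.27, 8.78 and 8.96 on the 4-week arrays. The 4-week arrays were below all others. Ebf4 fell by 0.73 (SE 0.17, adjusted p = 0.0232, lost in 4 of 9 fits) from control to 4 weeks, and Bcl11b fell by 0.44 (adjusted p = 0.0353, lost in 6 of 9). Lhx2, a homeodomain factor of the lineage, was at −0.50 (adjusted p = 0.0663). Of 18 measured genes of ciliary transport, 0 passed in any comparison, where 1.3%, 6.33% and 14.4% of all probe sets passed. The smallest adjusted p among them was that of Bbs2, a subunit of the BBSome, in 4-week minus control (−0.36, adjusted p = 0.0552).

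Markers of other cells moved with these groups. Of 12 markers of immature olfactory neurons, 6 rose in OVA minus control and 5 rose in 4-week minus control, with median changes of 0.41 and 0.36, while 1 fell in 4-week minus OVA. Of all probe sets, 0.782% rose in OVA minus control, 7.92% rose in 4-week minus control and 2.51% fell in 4-week minus OVA. Of the calls in this list, those of Gap43 and Gng8 were lost in 5 to 7 of 9 fits without 1 array, and those of the other 4 genes in none. Sox11, a factor of newly formed neurons, rose by 1.22 (adjusted p = 0.00171) and 1.08 (adjusted p = 0.00136) against control in the OVA and 4-week groups. Stmn1, a microtubule regulator of growing neurons, rose by 1.05 (adjusted p = 0.00302) and 0.89 (adjusted p = 0.00239). The summed level of the 12 was 11.43 to 11.59 on the control arrays, 11.90 to 12.13 on the OVA arrays and 11.79 to 12.01 on the 4-week arrays, so both ovalbumin groups were above control and overlapped each other. Of 4 measured markers of progenitors and dividing cells, 3 rose from control to 4 weeks, of which Top2a and Mki67 lost the call in 7 of 9 fits without 1 array and Neurod1 in 1 of 9. The summed level of the 4 was 7.74 to 8.11, 8.13 to 8.21 and 8.30 to 8.64. Leukocyte markers summed to 9.34 to 10.10, 9.61 to 10.22 and 9.46 to 9.64, and sustentacular cell markers to 14.40 to 14.51, 14.30 to 14.54 and 14.35 to 14.59, with 0 of 6 passing in either list. None passed either among 4 measured markers of horizontal basal cells, 8 of ciliated respiratory cells, 5 of vomeronasal neurons, 4 of glia, 1 of erythroid cells and 4 of guanylyl cyclase D neurons. Gland markers summed to 13.49 to 14.17, 12.91 to 13.17 and 13.27 to 13.53, and 1 of 9 fell in each comparison, the secreted protein Bpifb9a by 4.80 in OVA minus control and Dcpp2 in the other two (calls lost in 6, 7 and 2 of 9 fits without 1 array). The part of these cells in the changes of Rtp1, Gnal and the other members was not tested. The 1027 measured olfactory receptor genes, the first link of the chain, had median changes of −0.19, −0.10 and −0.32 in the 3 comparisons, with 48, 31 and 206 of them falling and 1, 1 and 3 rising. Of all probe sets, 0.521%, 2.51% and 6.45% fell and 0.782%, 3.81% and 7.92% rose. How these receptor counts hold without 1 array was not tested.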

How the data were processed

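RNA of nasal mucosa was hybridised to 9 arrays, 1 per sample, per the labels' protocols. The authors deposited log2 expression per probe set made with RMA, per the submitters' processing notes, and the RMA version and library are not stated there. The log2 scale was read from the values (1.63 to 13.8). There are no detection calls, so signal over background is unknown.

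Of 35556 rows, 23410 with a gene symbol in the platform annotation were tested. Of these, 21789 named 1 gene. Groups came from the labels. All 9 arrays were fitted with limma 3.58.1 in R 4.3.3 (lmFit and eBayes, 6 residual and 2.98 prior degrees of freedom), with Benjamini-Hochberg adjustment per comparison and a threshold of 0.05. In simulated data for 4-week minus control over these 23410 probe sets, 64% of 1.5-fold and 80% of 2-fold changes were recovered. There 200 probe sets were changed and each varied independently of the others.

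All 10 members are named, and from each list up to 4 genes of smallest p and any past the threshold in the comparisons that are described, and the 8 genes most like the members. A gene list's summed level is log2 of its summed linear values. The members and lists were chosen with earlier results of these data known, and the covariate fit and the promoter search after seeing the data. Alternatives were the normalization, the filter, the rows, the probe set rule, the groups fitted, the prior, the replicate block and each array left out.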

Additional observations from a re-analysis of the deposited data

How the results depend on the processing

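Of 570 member changes under alternatives, 531 kept their direction and side of the threshold, 15 lost and 11 gained a pass, and 13 turned direction. The number of members passing in OVA minus control was 0 throughout. In 4-week minus OVA it was 2 with the marker covariate and 0 to 1 without 1 array (Gnal at −0.45, adjusted p = 0.0426, without 4-week replicate 1), against 0. In 4-week minus control, against 2, it was 1 with every row of the table, 0 with the compared groups only and 4 with the covariate. It was 3 with quantile normalization again (Omp added), with the upper 60% of probe sets (Omp added) and with the mean of all probe sets of a member (Cngb1 added). Without 1 array it was 0 to 5 (5 without 4-week replicate 1, 1 without each OVA array). Of all probe sets, 14.4% passed in the main fit, 13.1% with the covariate and 6.66% to 12.7% without 1 array. For the settings that gave 3, no share of all probe sets is given, so these counts are not a result about the members. In 4-week minus OVA the shares were 6.33% in the main fit, 6.96% with the covariate and 3.5% without 4-week replicate 1. Same-numbered arrays correlated at −0.044 to 0.332 in their deviations from group means, over 0.1 in 5 of 9 pairs, and 4 of 9 arrays correlated best with their own number, so the numbers were not taken as pairs. With the replicate number as a block, 1 member passed in 4-week minus control, Rtp1 (adjusted p = 0.0436), and Gnal did not (adjusted p = 0.0592). In that setting 213, 1397 and 3271 probe sets passed in the 3 comparisons.

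Over all probe sets the count in OVA minus control was 305, and 143 with every row, 109 with the compared groups only and 63 to 305 without 1 array. In 4-week minus OVA it was 1481, and 946 with 1 probe set per gene, 737 with the compared groups only and 446 to 1361 without 1 array. In 4-week minus control it was 3364, and 2054 with the compared groups only and 1560 to 2966 without 1 array. Fewer samples enter when groups or arrays are left out, and the count also differed by which array was left out. In OVA minus control it was 305 without 4-week replicate 1 and 63 without control replicate 2. The cause of the differences between settings was not tested.

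Directions turned for values near 0. With the covariate, Adcy3 was at 0.020, Cnga2 at 0.023 and Cngb1 at 0.011 in OVA minus control, and with quantile normalization again Gng13 was at −0.10 in 4-week minus control. Without 1 array, OVA minus control ran from −0.25 to 0.036 for Adcy3, −0.086 to 0.020 for Cnga2, −0.18 to 0.049 for Cngb1 and −0.10 to 0.23 for Ano2. 4-week minus OVA ran from −0.20 to 0.11 for Omp and −0.22 to 0.024 for Rtp1, and 4-week minus control from −0.071 to 0.14 for Gng13. In simulated data over these 23410 probe sets, 54% of 1.5-fold and 82% of 2-fold changes were recovered in OVA minus control, and 64% and 82% in 4-week minus OVA, so changes of 1.5-fold and 2-fold can be missed. Smaller changes, which most members had, were not simulated. The simulation changed 200 probe sets and varied each probe set independently, whereas the members moved together from array to array.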
